A study of Mus musculus with 4 samples.

Results

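The gene family described here comprises the matrix metalloproteinases (MMPs), the ADAMTS and ADAMTS-like proteins and the tissue inhibitors of metalloproteinases (TIMPs). Members were chosen by symbol alone, and 51 of the 28006 annotated features matched: 23 Mmp genes, 19 Adamts genes, 5 Adamtsl genes and 4 Timp genes. They were followed across the cell classes of single-cell RNA-seq libraries of mouse femurs, and between femurs whose marrow had been ablated (ABL) and untreated contralateral femurs (CONT). Both groups carried Cxcl12-iCreER and R26R(tdTomato/+), received tamoxifen 7 days ahead of the ablation, and were collected 7 days after it. The age of the mice was not given in the sources used here. The CreER is driven by a bacterial artificial chromosome transgene of *Cxcl12*, in mice of mixed background, and tdTomato+ cells were sorted from enzyme-digested femurs without the distal growth plate. There were 2 libraries per group. Replicate 1 was made with Chromium version 2 from 7 pooled mice and replicate 2 with version 3, so replicate and chemistry cannot be told apart, and CONT and ABL were compared within each replicate.

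Called cells numbered 3433 (CONT replicate 1), 1459 (ABL replicate 1), 2404 (CONT replicate 2) and 2537 (ABL replicate 2), with medians of 5714, 7338, 12895.5 and 12283 unique molecular identifiers (UMIs) per cell. Classes were named from marker genes that include no member, so each name stands for cells that resemble that type. Reticular cells, the *Cxcl12*+*Lepr*+ stroma, had 1160, 416, 1968 and 351 cells in the same order, and 91.7 to 97.9% of them held a tdTomato UMI. Haematopoietic cells were 59.1, 52.6, 13.6 and 24.2% of the called cells in that order. The study reports no detectable *tdTomato* in its myeloid, lymphocyte and erythroid clusters. Levels in haematopoietic classes are therefore not read as levels of the labelled lineage. Other mesenchymal classes were filled unevenly. The periosteal fibroblast class had 18 CONT and 655 ABL cells, in replicate 2. It pools a cluster led by *Clec3b* and one led by *Prg4*, whose levels differed, as given at the end. The pre-osteoblast class had 45 CONT and 87 ABL cells and the osteoblast class 10 CONT and 54 ABL cells, both in replicate 1 alone. In replicate 2 a cluster of 9 CONT and 60 ABL cells scored highest for osteoblast markers and stayed unnamed. Clustered alone, ABL replicate 2 had a cluster of 266 cells named pre-osteoblast, but after integration no cluster of replicate 2 took that name. There, a cluster of 360 ABL cells scored 0.556 for periosteal fibroblast and 0.495 for pre-osteoblast markers and stayed unnamed. The libraries of a replicate did not match in sex-linked genes. A UMI of *Xist* was present in 49.8% (CONT) and 81.4% (ABL) of the mesenchymal cells in replicate 1. In replicate 2 the shares were 71.9% (CONT) and 0.0553% (ABL). A UMI of any of 4 Y-linked genes was present in 29.8% (CONT) and 15.8% (ABL) of them in replicate 1. In replicate 2 it was 26.5% (CONT) and 70.5% (ABL). Sex makeup and ablation thus cannot be told apart in replicate 2, and the part of sex in the results was not tested. Free RNA gave an estimated 8.70% (CONT) and 7.50% (ABL) of the UMIs of reticular cells in replicate 1, and 0.942% (CONT) and 2.09% (ABL) in replicate 2. No more than 5 cell barcodes were shared by any pair of libraries.

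MMPs are zinc proteases that cut collagens and other matrix proteins outside the cell. Collagenases such as *Mmp13* and *Mmp8* open the collagen triple helix, the gelatinases *Mmp2* and *Mmp9* digest denatured collagen, and membrane-type MMPs such as *Mmp14* are held at the cell surface, where *Mmp14* also activates pro-*Mmp2*. ADAMTS enzymes are secreted proteases with thrombospondin repeats. Some cleave proteoglycans (*Adamts1*, *Adamts4*, *Adamts5*, *Adamts9*, *Adamts15*), others remove a propeptide of procollagens (*Adamts2*, *Adamts3*, *Adamts14*), and the ADAMTS-like proteins have the repeats but no protease domain. The TIMPs bind and block the active sites of these enzymes. In bone, *Mmp13* and *Mmp14* are known for matrix remodelling by stromal and osteoblast-lineage cells, and *Mmp9* for its abundance in osteoclasts.

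Of the 51 members, 33 reached 20 CPM (the count of a gene's UMIs, scaled to a class total of 1000000) in a class of some library, 38 had counts high enough for a test between CONT and ABL in some class, and 39 met either condition and are described. Of these 39, 26 were highest in a mesenchymal class, 8 in endothelial cells and 5 in a haematopoietic class. The remaining 12 were *Adamts8*, *Adamts13*, *Adamts19*, *Adamtsl2*, *Mmp1a*, *Mmp1b*, *Mmp7*, *Mmp10*, *Mmp20*, *Mmp21*, *Mmp24* and *Mmp27*, and 3 of them (*Mmp1a*, *Mmp7* and *Mmp20*) had no UMI in any called cell. UMIs count molecules and not fragments, so CPM values can be set side by side between genes without a correction for length. Ranges in brackets after a CPM are 95% exact Poisson intervals and cover counting error only. Where a replicate is given a pair of values, CONT comes first and ABL second. Levels by class are descriptions of these libraries, with no test.

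The members of the chromosome 9 cluster are shown first because neighbouring genes had very different cell classes. A run of 10 Mmp genes lies at chr9:7272514-7699585 (427 kb, GRCm38), from *Mmp13* at one end to *Mmp7* at the other, and 6 of the 10 had fewer than 50 UMIs in all called cells. The other 4 were *Mmp13*, *Mmp12*, *Mmp3* and *Mmp8*. Their 150 bases upstream of the annotated start (RefSeq, GRCm38.p6, all on the + strand) are printed with matches to the AP-1 letters TGANTCA and to the RUNX letters TGTGGT or ACCACA in capitals.

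Mmp13, chr9:7272364-7272513: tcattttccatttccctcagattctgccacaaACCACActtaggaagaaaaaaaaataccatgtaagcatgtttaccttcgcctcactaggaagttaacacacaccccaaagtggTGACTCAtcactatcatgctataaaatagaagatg
Mmp3, chr9:7445672-7445821: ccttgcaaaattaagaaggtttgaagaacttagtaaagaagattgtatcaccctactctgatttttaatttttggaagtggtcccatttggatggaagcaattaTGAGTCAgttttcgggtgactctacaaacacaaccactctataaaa
Mmp12, chr9:7347224-7347373: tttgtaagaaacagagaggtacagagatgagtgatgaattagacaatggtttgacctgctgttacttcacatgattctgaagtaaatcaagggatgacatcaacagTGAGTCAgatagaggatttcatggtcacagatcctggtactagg
Mmp8, chr9:7558279-7558428: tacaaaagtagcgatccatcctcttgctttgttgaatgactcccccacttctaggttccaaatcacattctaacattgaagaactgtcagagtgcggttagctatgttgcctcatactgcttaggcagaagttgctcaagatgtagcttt

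Over the full RefSeq windows of 250 bases before and 50 after the start, both strands searched, 8 of the 10 cluster genes held an AP-1 match, *Mmp8* and *Mmp27* being the exceptions. Of the 26 other members with a RefSeq entry, 0 held one, and the share among all 32851 RefSeq promoters was 7.81%. The match of *Mmp13* began 35 bases before the start, that of *Mmp12* 44 bases and that of *Mmp3* 46 bases before it. The RUNX letters, which 16.8% of all promoters held, were found in 6 members, among them *Mmp13* at 118 bases and *Mmp14* at 114 bases before the start. In all, 36 of the 51 members had an entry. A match describes letters only, and none of these libraries measured binding.

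*Mmp13*, which cleaves type II and type I collagen, had the highest level of any member. In reticular cells it stood at 1161 CPM in CONT and 2880 CPM in ABL of replicate 1, and at 1117 CPM and 2199 CPM in replicate 2. Pre-osteoblasts were higher than the reticular cells of their own library, at 3053 CPM (2849 to 3268) in CONT and 3672 CPM (3532 to 3816) in ABL. The level fell short of these in osteoblasts, with 181 and 201 CPM. In the cycling mesenchymal cells of replicate 2 it was 4637 CPM in CONT (21 cells) and 1216 CPM in ABL (186 cells). That class was named by proliferation genes, and reticular cells were 1968 of 2053 mesenchymal cells in its CONT library and 351 of 1809 in ABL. The kinds of cell it holds can thus differ between the groups, and their part in the cycling values given here and below was not tested. Chondrocytes had 79.3 CPM, in the only library with that class.

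*Mmp3* was concentrated in 1 library and *Mmp12* in few of the cells. *Mmp3*, stromelysin, had 7721 of its 7775 UMIs in mesenchymal cells of ABL replicate 2, with 480 CPM (467 to 494) in periosteal fibroblasts, 74.0 CPM in cycling cells and 52.7 CPM in chondrocytes. Of the 655 periosteal fibroblasts, 286 held a UMI of *Mmp3*, and *Mmp3* was also a leading gene of an unnamed cluster of 360 cells in that library. It had 0 UMIs in the 18 periosteal fibroblasts of CONT replicate 2, where the exact Poisson interval reached up to 16.8 CPM. A chosen floor of 3 counts there would be 13.7 CPM, and the ABL level was 35.1-fold over that floor. The floor lies below 16.8 CPM, so 35.1-fold is not a lower limit of the difference. That ratio sets 1 library against another and has no replicate check. The makeup of these cells also differed between the libraries, as given at the end, and its part was not tested. Reticular cells of the same ABL library had 1 UMI of *Mmp3*. *Mmp12*, macrophage elastase, had 1 UMI in the monocyte or macrophage class of CONT replicate 1 (0.837 CPM). The same class had 108 UMIs, from 8 cells, in ABL replicate 1 (94.0 CPM, 77.1 to 114) and 477 UMIs, from 11 cells, in ABL replicate 2 (219 CPM, 200 to 240). The class was not filled in CONT replicate 2. The makeup of this class moved with the group: *C1qa*, made by macrophages, was at 746, 2496 and 3529 CPM in these libraries and the monocyte gene *Ly6c2* at 1745, 488 and 217 CPM, and their part in the result was not tested. *Mmp12* overlaps *Mmp1b* on the opposite strand, which had 1 UMI.

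*Mmp8*, the neutrophil collagenase, stood at 1127 and 1133 CPM in neutrophils of replicate 1, and at 2236 and 1655 CPM in replicate 2. The next most abundant of the 4 in neutrophils, *Mmp13*, was at 17.8 to 157 CPM there. In reticular cells *Mmp8* was at 16.4 and 9.63 CPM in replicate 1 and at 0.154 and 0 CPM in replicate 2. The free RNA estimate for reticular cells of replicate 1 was 21.1 and 12.0 CPM of *Mmp8*, above both measured values.

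**Figure D1:**
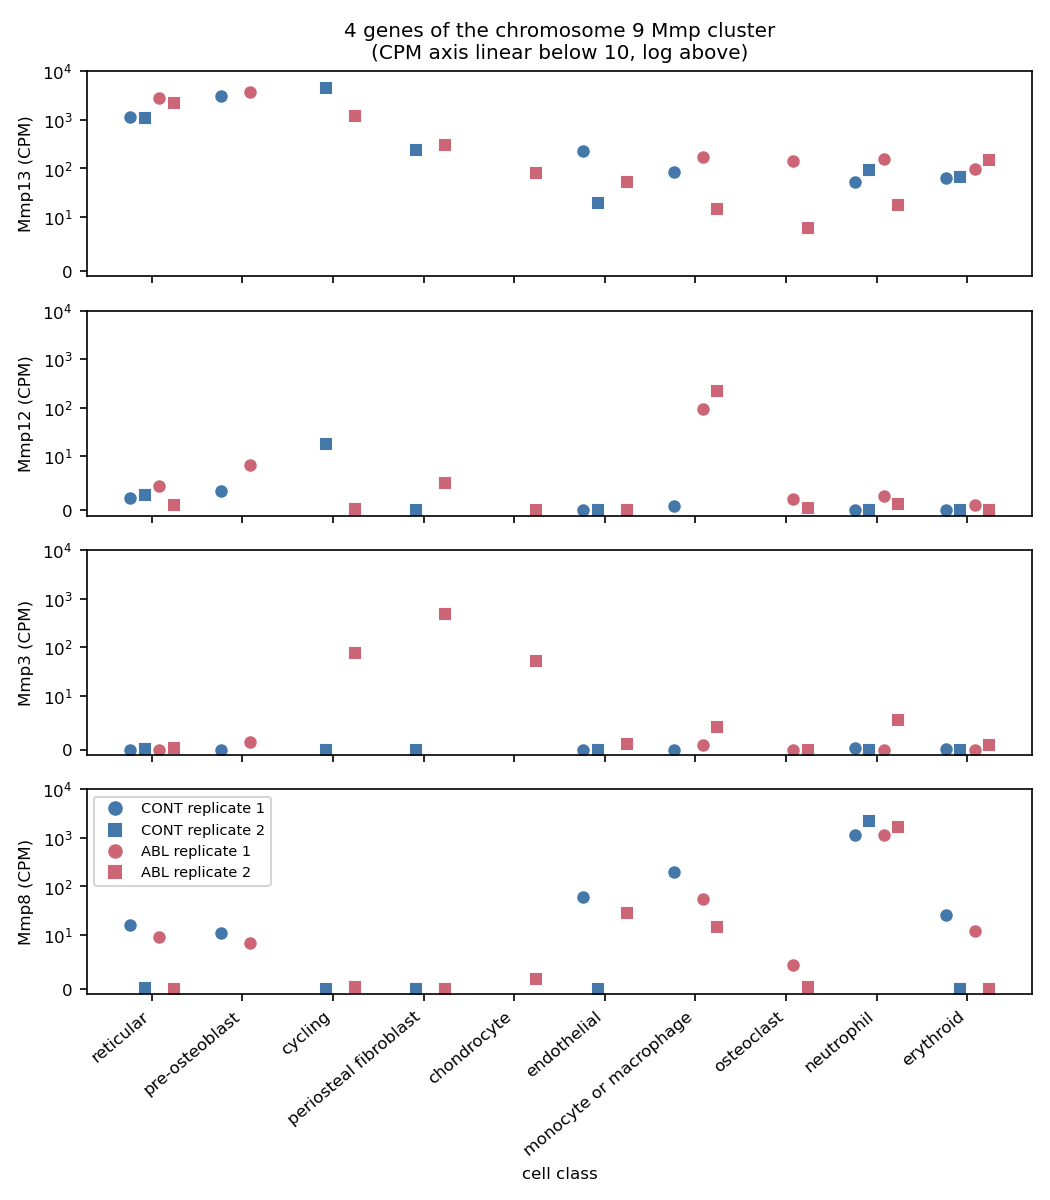
CPM (linear below 10, log above) of *Mmp13*, *Mmp12*, *Mmp3* and *Mmp8* in 10 cell classes, with 1 point per library that holds at least 10 cells of the class; colour marks CONT or ABL and shape the replicate. *Mmp13* lies highest in cycling mesenchymal cells of CONT replicate 2 (4637 CPM), then in pre-osteoblasts (3672 CPM in ABL), *Mmp12* in ABL monocytes or macrophages, *Mmp3* in ABL periosteal fibroblasts and *Mmp8* in neutrophils.

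Among the gelatinases, *Mmp9* and *Mmp2* were highest in different classes. *Mmp9* was highest in osteoclasts, at 3470 CPM (3302 to 3646) in the 20 cells of ABL replicate 1 and 2082 CPM (2023 to 2142) in the 80 cells of ABL replicate 2. *Acp5* and *Ctsk*, which mark osteoclasts, were at 6437 and 6715 CPM in the former and 6079 and 5511 CPM in the latter. In neutrophils *Mmp9* stood at 1011 CPM (CONT) and 998 CPM (ABL) in replicate 1, and at 1785 CPM (CONT) and 1491 CPM (ABL) in replicate 2. Pre-osteoblasts had 18.3 CPM (5.96 to 42.8) in CONT and 232 CPM (197 to 270) in ABL of replicate 1. *Mmp2* was a mesenchymal transcript: 429 CPM in CONT and 1129 CPM in ABL periosteal fibroblasts, 423 and 593 CPM in osteoblasts, and 11.0 and 7.97 CPM in the osteoclasts of the 2 ABL libraries.

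Among the membrane-type enzymes, *Mmp14* was found in osteoclasts (278 and 313 CPM in ABL replicates 1 and 2) as well as in periosteal fibroblasts (242 CPM in CONT, 369 CPM in ABL) and cycling cells (307 and 486 CPM). In monocytes or macrophages *Mmp14* was at 8.37 CPM (4.01 to 15.4) in CONT replicate 1, 54.9 CPM (42.2 to 70.2) in ABL replicate 1 and 109 CPM (95.6 to 124) in ABL replicate 2. *Mmp19*, a soluble enzyme, was at 10.9, 50.5 and 49.2 CPM in these same cells. The makeup of that class moved with the group, as given above for *Mmp12*, and its part in these values was not tested. *Mmp16* was highest in osteoblasts, at 101 CPM (48.3 to 185) in CONT and 94.2 CPM (72.3 to 121) in ABL of replicate 1. The CONT value rests on 10 UMIs in 10 cells. *Mmp25*, made by leukocytes, was at 17.5 and 17.5 CPM in neutrophils of replicate 1 and at 56.7 and 24.4 CPM in replicate 2. *Mmp15* reached 31.8 CPM in ABL endothelial cells. *Mmp17* reached 63.9 CPM in CONT periosteal fibroblasts, which were 18 cells.

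Of the proteoglycan-cleaving ADAMTS genes, *Adamts1*, *Adamts4*, *Adamts5* and *Adamts9* were highest in endothelial cells, a class filled by 88 and 25 CONT cells (replicates 1 and 2) and 114 ABL cells (replicate 2). *Adamts5* was at 934, 2634 and 981 CPM in these 3 libraries, against 90.8 to 119 CPM in reticular cells. *Adamts1* was at 618, 1246 and 941 CPM in endothelial cells, and its reticular level in CONT replicate 2, 1077 CPM, lay within that range. *Adamts9* was at 173, 733 and 343 CPM and *Adamts4* at 177, 719 and 232 CPM. For each of these 4 genes CONT replicate 2 was the highest of the 3 endothelial libraries. *Adamts15*, of the same group of enzymes, had 0 UMIs in all 3, with upper 95% limits of 8.26, 9.05 and 3.79 CPM, and was highest in reticular cells (27.9 CPM in ABL replicate 1). *Adamts1* and *Adamts5* are neighbours on chromosome 16, at chr16:85793827-85803113 and chr16:85856173-85901828 (GRCm38). The procollagen protease *Adamts2* was low in endothelial cells (40.3, 22.1 and 6.16 CPM) and highest in reticular cells.

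Other ADAMTS genes were highest in a skeletal class, at low levels. *Adamts18* was at 52.1 CPM (41.6 to 64.3) in the chondrocytes of ABL replicate 2. *Adamts14*, a procollagen protease, was at 41.0 CPM (27.05 to 59.7) in ABL osteoblasts and 10.1 CPM (0.255 to 56.2) in CONT osteoblasts, intervals that overlap, and reticular cells of that CONT library had 15.1 CPM. *Adamts20* had 15 UMIs in all cells, 10 of them in the 18 periosteal fibroblasts of CONT replicate 2. *Adamts16* reached 19.5 CPM (16.9 to 22.5) in the 655 periosteal fibroblasts of ABL replicate 2. *Adamtsl5* was at 27.4 CPM (10.05 to 59.6) in CONT and 29.98 CPM (26.7 to 33.6) in ABL periosteal fibroblasts. *Adamts7* was highest in endothelial cells instead, at 15.7 and 7.36 CPM in the CONT libraries and 26.7 CPM in ABL replicate 2. The levels of *Adamts6*, *Adamts17* and *Mmp28* did not exceed 10.1, 8.47 and 3.13 CPM in any class.

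The inhibitors differed from each other in class. *Timp3*, which binds to the extracellular matrix, was highest in endothelial cells at 829 and 1310 CPM in the CONT libraries and 865 CPM in ABL replicate 2, and stood at 23.98 to 39.9 CPM in reticular cells. *Timp2*, which also takes part in the activation of pro-*Mmp2* by *Mmp14*, was found in mesenchymal and myeloid classes alike. It was at 730 CPM in CONT and 1570 CPM in ABL periosteal fibroblasts, at 188 to 224 CPM in neutrophils, and at 106, 352 and 531 CPM in monocytes or macrophages of CONT replicate 1, ABL replicate 1 and ABL replicate 2. For this last class the shift in makeup given above applies here too, and its part was not tested. *Timp1* was highest in cycling cells (312 CPM in CONT, 1241 CPM in ABL), in the chondrocytes of ABL replicate 2 (959 CPM) and in periosteal fibroblasts (388 and 788 CPM). *Timp4* did not exceed 17.9 CPM in any class.

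**Figure D2:**
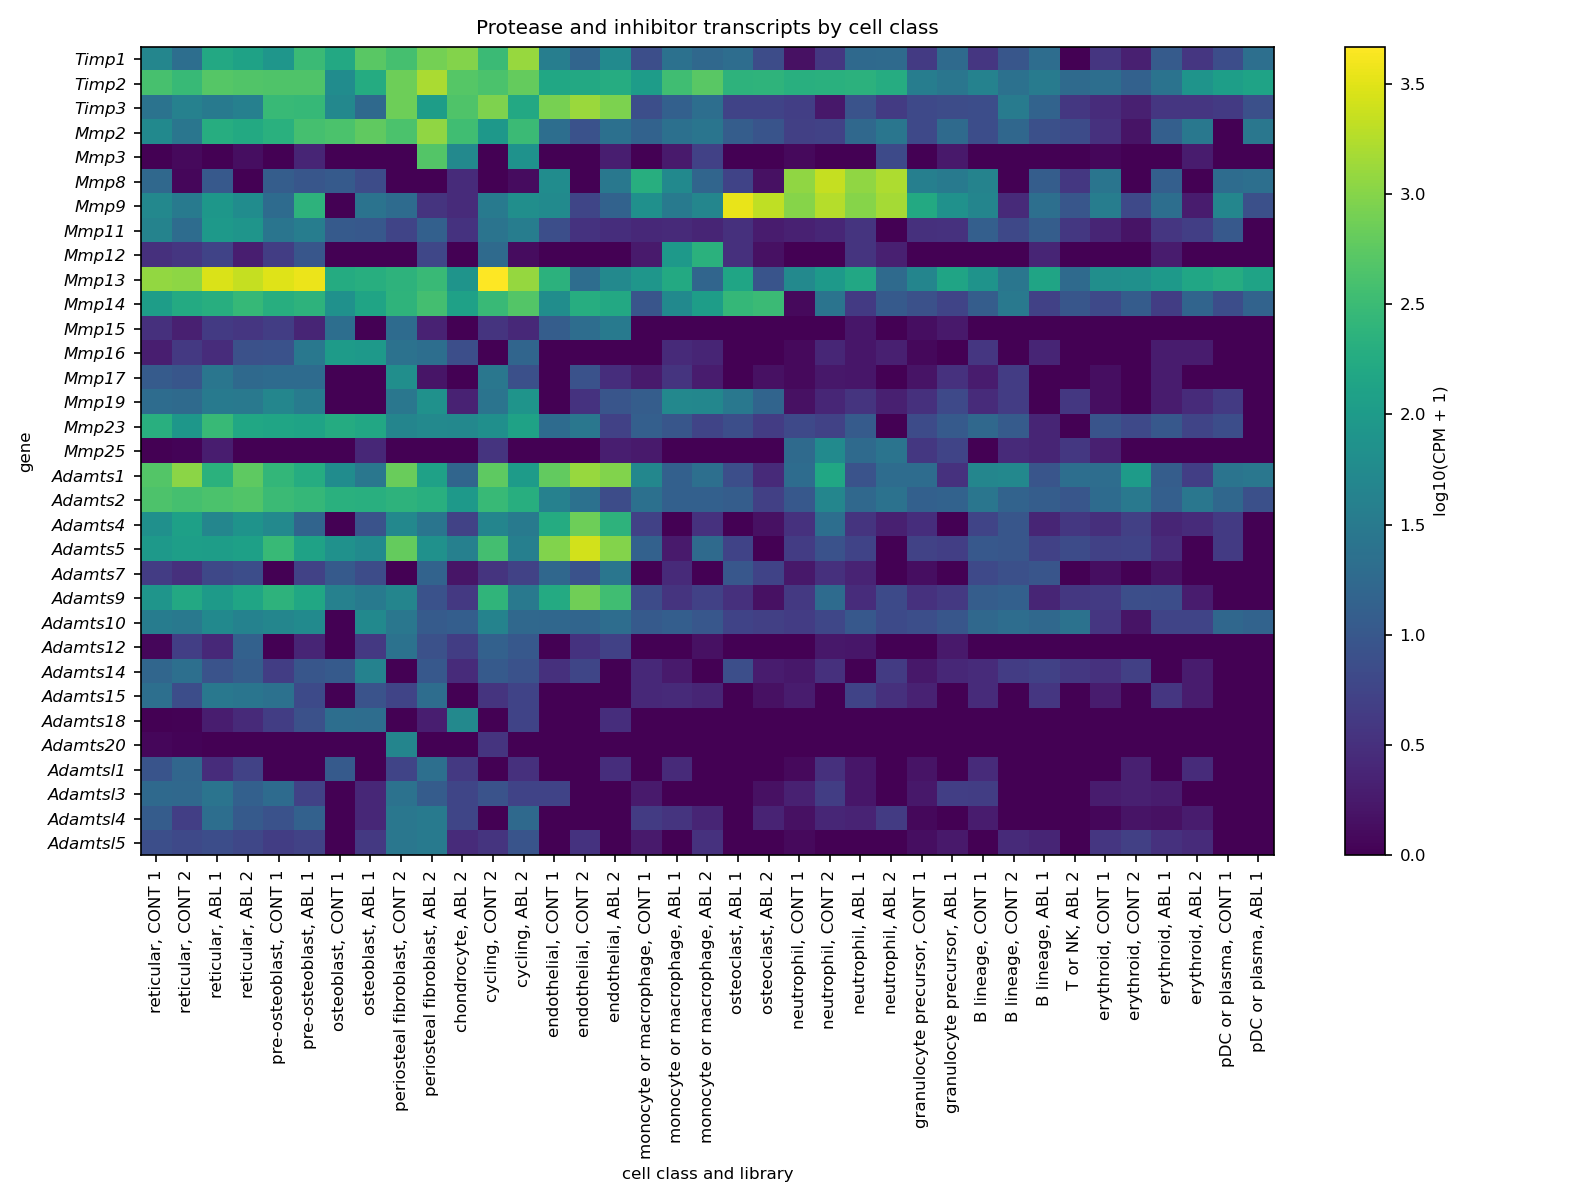
Heat map of log10(CPM + 1) for 33 members (the 33 that reached 20 CPM) in each cell class and library with at least 10 cells of that class. *Mmp8* and *Mmp9* stand out in neutrophils, *Mmp9* in osteoclasts (3470 and 2082 CPM), *Adamts1*, *Adamts4*, *Adamts5*, *Adamts9* and *Timp3* in endothelial cells, and *Mmp13* in reticular, pre-osteoblast and cycling mesenchymal cells.

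Some mesenchymal clusters had no class name and still held high levels. A cluster of 360 cells in ABL replicate 2 was led by *Nbl1*, *Msmp* and the member *Mmp3*. Its best scores were 0.556 for periosteal fibroblast and 0.495 for pre-osteoblast markers, too close for a name. It had 2327 CPM of *Mmp13*, 1165 CPM of *Mmp2* and 807 CPM of *Mmp14*, the last above every named class. A cluster of 55 cells in the same library, led by *Postn*, had 2369 CPM of *Timp1* and 8.73 CPM of *Mmp13*. A cluster led by *Prg4* in replicate 1 had 351 CPM of *Timp1* in its 53 CONT cells and 2185 CPM in its 84 ABL cells. That cluster scored highest for endothelial markers (0.951) but was counted as mesenchymal. Members were left out of the clustering of mesenchymal cells, so they did not set these groups.

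The comparison of CONT and ABL asked which members differed in cells of the same class. In reticular cells 31 of the 51 members had enough counts to be tested, and 10 passed an adjusted p of 0.05 (32.3%) in edgeR's quasi-likelihood test with the replicate as a block, against 5.05% of all 11408 genes tested. Of the 10, 8 were higher in ABL (all genes: 2.68%) and 2 were lower (all genes: 2.37%). The median log2 fold change was 0.50 over the 31 members and -0.01 over all genes. Both replicates gave the same sign for 25 of the 31 (80.6%), against 59.1% of all genes. With 2 libraries per group, an exact permutation test of a single gene, made without the replicate block, could not go below 0.333. The p-values given rest on a spread borrowed from all genes. In the reticular fit that borrowing was complete (infinite prior degrees of freedom), so a gene's own spread between these 4 libraries had no weight. In the fit of all mesenchymal cells the prior degrees of freedom were 9.33, so both entered. Without the replicate block none of the 10 passed, and 7 members had an unadjusted p under 0.05.

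*Timp1* and *Mmp2* rose with the lowest adjusted p of the members. *Timp1* (chrX:20870166-20874735) was at 47.8 CPM in CONT and 160 CPM in ABL of replicate 1, and at 19.97 and 130 CPM in replicate 2. Both ABL libraries were above both CONT libraries, with a log2 fold change of 2.13 ± 0.25 (SE), or 4.38-fold, and an adjusted p of 7.73e-15 in edgeR. *Mmp2* (chr8:92827291-92853420), the gelatinase, was at 54.8 CPM in CONT and 189 CPM in ABL of replicate 1, and at 26.3 and 165 CPM in replicate 2. Its groups did not overlap either, and it rose by 2.13 ± 0.26 on the log2 scale, or 4.37-fold (adjusted p = 1.51e-13, edgeR). The free RNA estimates were 18.1 and 8.84 CPM of *Timp1* and 14.5 and 8.77 CPM of *Mmp2* in ABL of replicates 1 and 2. With the free RNA profile subtracted the log2 fold changes were 2.05 for *Timp1* and 2.11 for *Mmp2*. *Timp1* is on the X chromosome, and the part of sex in its result was not tested.

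The same held cluster by cluster within the reticular class. In replicate 1 the 5 reticular clusters ranged from 27.3 to 63.5 CPM of *Timp1* in CONT and from 82.5 to 199 CPM in ABL. In replicate 2 the 7 clusters ranged from 11.7 to 32.8 CPM in CONT and from 85.9 to 229 CPM in ABL. Every ABL cluster was thus above every CONT cluster of its replicate. The clusters are groups of cells from the same libraries, not replicates, and add no independent evidence. For *Mmp2* the ranges were 51.7 to 61.0 and 134 to 293 CPM in replicate 1, and 8.95 to 47.7 and 104 to 375 CPM in replicate 2, again without overlap. For *Mmp11* they were 0 to 55.6 and 75.8 to 114 CPM in replicate 1, and 8.95 to 22.8 and 48.6 to 133 CPM in replicate 2.

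Markers of other classes also moved in reticular cells. The 14 periosteal fibroblast markers, a class in which *Timp1* and *Mmp2* are abundant, summed to 213 and 272 CPM in replicate 1 and to 111 and 452 CPM in replicate 2, with 5 of 8 tested markers higher in ABL and 1 lower. The 12 osteoblast markers summed to 4371 and 6698 CPM in replicate 1 and to 7497 and 5006 CPM in replicate 2, with 7 of 11 higher and 1 lower. The 9 erythroid markers summed to 5695 and 4816 CPM in replicate 1 and to 125 and 2181 CPM in replicate 2, with 2 of 9 higher and 0 lower. The 12 reticular markers stood at 33581 to 36395 CPM in the 4 libraries, with 0 higher and 1 lower. No marker of these lists was at 0 in all libraries, and their part in the results for reticular cells was not tested.

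Of the other MMPs, *Mmp11* (chr10:75923222-75936496), known as stromelysin-3, was at 42.6 CPM in CONT and 93.1 CPM in ABL of replicate 1, and at 19.0 and 80.7 CPM in replicate 2. It rose by 1.52 ± 0.24 on the log2 scale (adjusted p = 1.74e-08, edgeR), with both ABL libraries above both CONT libraries. *Mmp17*, a membrane-anchored enzyme, was at 10.4 and 26.3 CPM in replicate 1 and at 8.45 and 17.0 CPM in replicate 2, again without overlap, and rose by 1.07 ± 0.29 (adjusted p = 0.00838, edgeR).

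*Mmp9* was at 51.2 and 85.4 CPM in replicate 1 and at 31.8 and 59.1 CPM in replicate 2. The groups did not overlap and the difference was 0.72 ± 0.23 (adjusted p = 0.0378, edgeR). It passed under only 4 of the 11 alternatives with the block. By cluster, *Mmp9* ranged from 44.0 to 98.9 CPM in CONT and from 43.3 to 124 CPM in ABL of replicate 1. In replicate 2 it ranged from 3.84 to 57.7 and from 12.7 to 145 CPM, so the ranges overlapped in both. In replicate 1 the largest cluster had 44.0 and 124 CPM, and the next largest 63.0 and 53.5 CPM. Neutrophil and osteoclast RNA is rich in this gene. Free RNA was estimated at 23.7 and 24.4 CPM of *Mmp9* in replicate 1 and at 0.867 and 3.57 CPM in replicate 2, and the difference was 0.90 (adjusted p = 0.00323, edgeR) with free RNA subtracted. The 10 neutrophil markers summed to 10247 and 6101 CPM in reticular cells of replicate 1 and to 150 and 116 CPM in replicate 2, with 0 of 9 tested markers higher in ABL. The 6 osteoclast markers summed to 244 and 235 CPM in replicate 1 and to 98.9 and 150 CPM in replicate 2, with 1 of 2 tested markers higher in ABL. No marker of either list was at 0 in all libraries, and their part in the result was not tested.

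Among the ADAMTS genes, *Adamts15*, which cleaves proteoglycans, was at 20.6 CPM in CONT and 27.9 CPM in ABL of replicate 1 and at 6.30 and 25.5 CPM in replicate 2. It rose by 1.13 ± 0.28 (adjusted p = 0.00211, edgeR), and most of the difference lay in replicate 2. *Adamts12* was low in replicate 1, at 0.171 CPM in CONT and 1.60 CPM in ABL, and was at 3.72 and 12.7 CPM in replicate 2. Its groups overlapped across replicates, though it rose within each of them, and the log2 fold change was 1.90 ± 0.57 (adjusted p = 0.0220, edgeR). Without ABL replicate 2 and without the block, its log2 fold change was -0.52. *Adamtsl4*, which binds fibrillin fibres, was at 10.6 and 20.2 CPM in replicate 1 and at 3.84 and 9.91 CPM in replicate 2, overlapping across replicates, and rose by 1.04 ± 0.33 (adjusted p = 0.0352, edgeR).

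The members that fell were *Adamtsl1* and *Adamts14*. *Adamtsl1* was at 7.88 CPM in CONT and 1.93 CPM in ABL of replicate 1, and at 15.1 and 4.25 CPM in replicate 2. It fell by 1.99 ± 0.42 on the log2 scale (adjusted p = 1.08e-04, edgeR), with both ABL libraries below both CONT libraries. *Adamts14* was at 15.1 and 7.70 CPM in replicate 1 and at 20.5 and 11.0 CPM in replicate 2, and fell by 1.02 ± 0.31 (adjusted p = 0.0253, edgeR), also without overlap. The other procollagen proteases did not pass: *Adamts2* was at 444 and 421 CPM in replicate 1 and 382 and 460 CPM in replicate 2 (log2 fold change 0.00 ± 0.35), and *Adamts3* did not exceed 7.44 CPM.

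**Figure D3:**
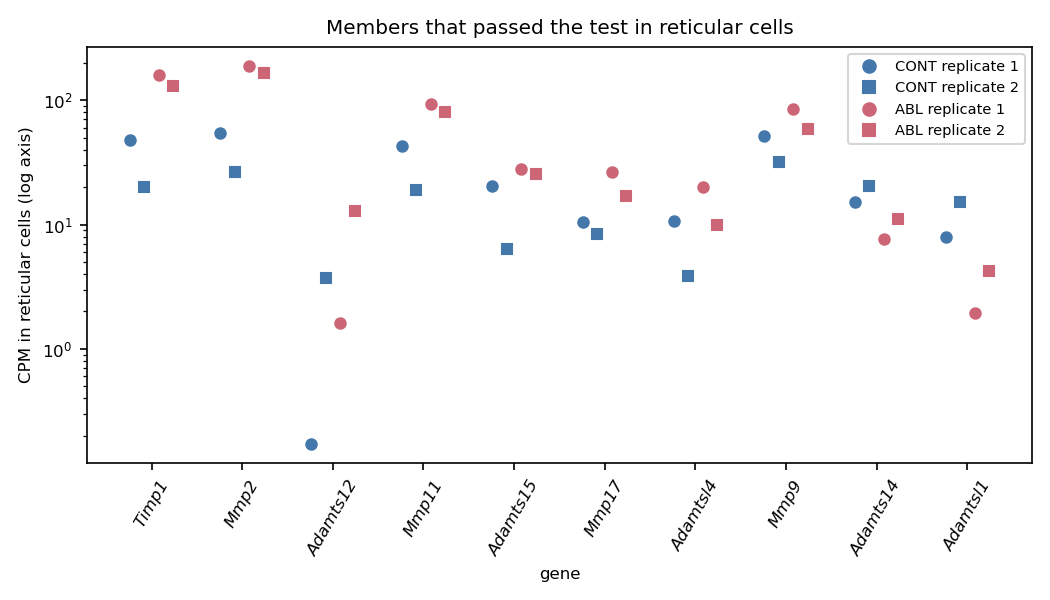
CPM (log axis) in reticular cells of the 10 members that passed the test, with 1 point per library (circles replicate 1, squares replicate 2, blue CONT, red ABL). ABL points lie above CONT points of the same shape for 8 genes, such as *Timp1* (130 and 160 CPM against 19.97 and 47.8 CPM), and below them for *Adamts14* and *Adamtsl1*.

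The 21 other tested members did not pass, among them the most abundant ones. *Mmp13* was at 1161 and 1117 CPM in the CONT libraries and 2880 and 2199 CPM in the ABL libraries. The groups did not overlap, yet the log2 fold change of 1.05 ± 0.46 had an adjusted p of 0.208 in edgeR. By cluster, *Mmp13* ranged from 1029 to 1286 CPM in CONT and 2226 to 3042 CPM in ABL of replicate 1, and from 780 to 1997 and 698 to 3154 CPM in replicate 2, where the ranges overlapped. *Mmp14* was at 110 and 198 CPM in replicate 1 and at 171 and 285 CPM in replicate 2 (0.70 ± 0.29, adjusted p = 0.170, edgeR). *Timp2* was at 403 and 492 CPM in replicate 1 and at 292 and 471 CPM in replicate 2 (0.40 ± 0.35, adjusted p = 0.681, edgeR). Both *Mmp14* and *Timp2* were higher in both ABL libraries than in either CONT library, as was *Mmp19* (0.64 ± 0.26, adjusted p = 0.145, edgeR). *Mmp23*, an enzyme made as a membrane protein, was at 207 and 296 CPM in replicate 1 and at 86.9 and 152 CPM in replicate 2 (0.57 ± 0.29, adjusted p = 0.320, edgeR), so its groups overlapped across replicates. *Adamts10*, which binds fibrillin, was at 33.2 and 53.3 CPM in replicate 1 and at 29.3 and 41.8 CPM in replicate 2, without overlap (0.50 ± 0.23, adjusted p = 0.247, edgeR). *Adamtsl3* was at 17.1 and 25.03 CPM in replicate 1 but at 16.5 and 12.4 CPM in replicate 2, opposite directions. *Adamts7* and *Adamtsl5* stayed at 2.23 to 6.68 CPM in reticular cells, with log2 fold changes of 0.99 ± 0.52 and -0.19 ± 0.43. In all, 13 of the 31 members had both ABL libraries above both CONT libraries and 3 had both below. The matching share over all genes is not given here, so these counts are not read as a result about the members.

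Of the proteoglycan-cleaving genes only *Adamts15* passed in reticular cells. *Adamts1* was at 478 and 217 CPM in replicate 1 and at 1077 and 576 CPM in replicate 2, a difference of -1.12 ± 0.38 with an adjusted p of 0.0622 in edgeR and of 0.00202 in DESeq2. *Adamts4* was at 67.8 and 46.8 CPM in replicate 1 and at 121 and 76.5 CPM in replicate 2 (-0.69 ± 0.24, adjusted p = 0.0705, edgeR). *Adamts5* was at 90.8 and 107 CPM in replicate 1 and at 114 and 119 CPM in replicate 2 (0.05 ± 0.25, adjusted p = 0.970, edgeR), and *Adamts9* had a log2 fold change of -0.05 ± 0.26. The level of *Adamts1* varied more between the reticular clusters of replicate 2 than between the groups, from 255 to 2036 CPM over the 7 clusters in CONT and from 135 to 917 CPM in ABL. Immediate early and heat shock genes, which handling stress can raise, had lower sums in ABL too. Handling itself was not measured. The 13 genes of that list, chosen after the data were seen, summed to 13001 and 8901 CPM in replicate 1 and to 15529 and 9301 CPM in replicate 2, with 3 of 13 lower and 0 higher, and none was at 0 in all libraries. Between clusters, *Adamts1* and the immediate early gene *Fos* went together in some and apart in others. In CONT replicate 2 the cluster with 2036 CPM of *Adamts1* had 14085 CPM of *Fos*, and one with 1033 CPM had 766 CPM. In CONT replicate 1 a cluster with 557 CPM of *Adamts1* had 614 CPM of *Fos*, and one with 243 CPM had 4032 CPM. The part of these genes in the result was not tested.

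**Figure D4:**
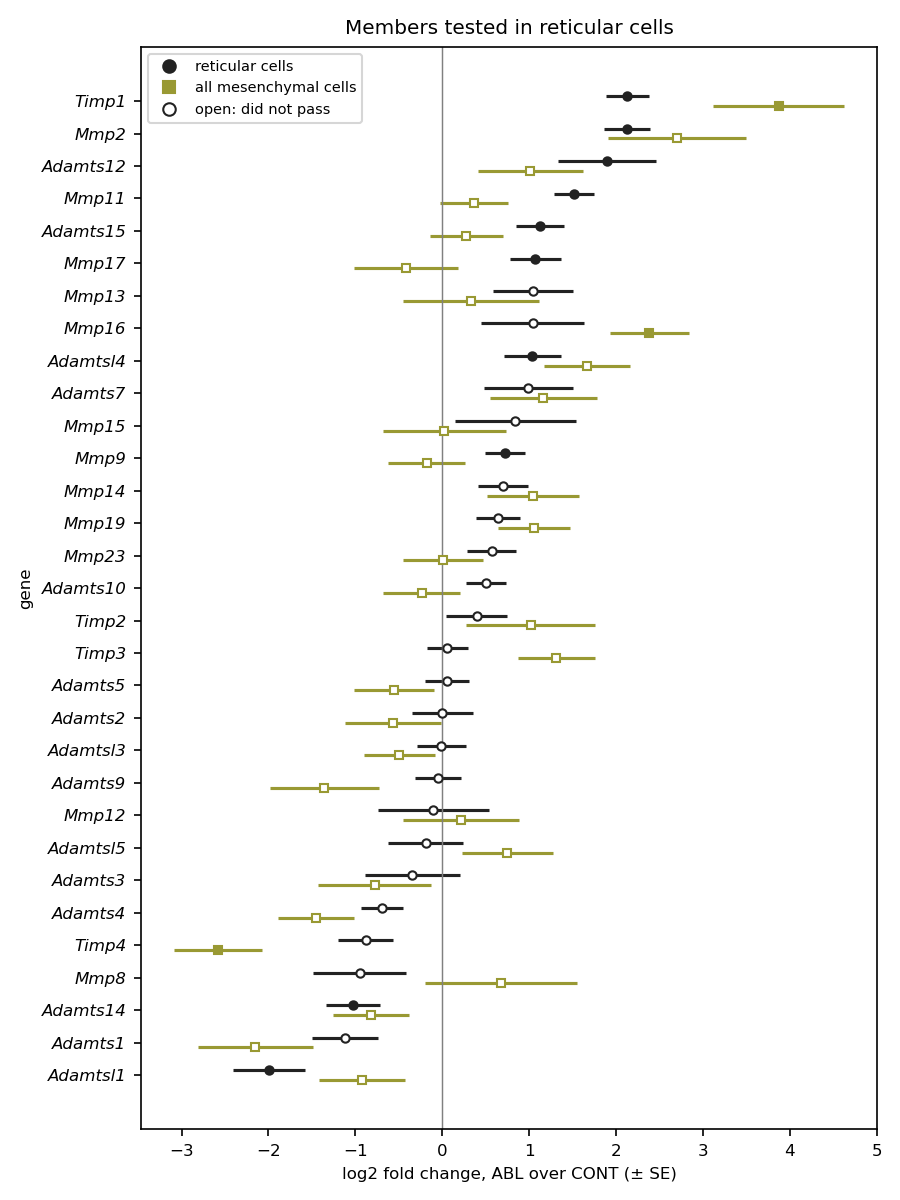
Log2 fold change of ABL over CONT (± SE) of the 31 members tested in reticular cells, with the value in reticular cells (circles) and in all mesenchymal cells (squares); filled symbols passed the adjusted threshold. In reticular cells *Timp1* and *Mmp2* lie farthest to the right (both 2.13) and *Adamtsl1* farthest to the left (-1.99).

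All mesenchymal cells were compared as a second fit. It does not rest on how these cells were divided into classes, but it takes in the change in class shares. Which clusters counted as mesenchymal did rest on marker scores. In replicate 1, 88 endothelial cells were set apart in CONT and 0 in ABL. Reticular cells were 1968 of 2053 mesenchymal cells in CONT replicate 2 and 351 of 1809 in ABL replicate 2. Here 37 members were tested and 4 passed (10.8%), against 1.09% of all 13725 genes. Of these, 3 were higher in ABL (all genes: 0.903%) and 1 was lower (all genes: 0.189%). The number of members that passed ranged from 0 to 10 over the processing alternatives, and was 0 without the replicate block (14 members at an unadjusted p under 0.05) and 0 with doublets removed. The number of all genes that passed moved as well. It was 0 without the block, 12 of 13658 with doublets removed and 1053 of 13725 without TMM scaling.

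*Timp1* was at 70.9 CPM in CONT and 541 CPM in ABL of replicate 1 and at 30.9 and 921 CPM in replicate 2. It rose by 3.87 ± 0.75 on the log2 scale (adjusted p = 0.0480, edgeR), and its groups did not overlap. *Mmp16*, highest by class in osteoblasts, was at 2.74 and 16.5 CPM in replicate 1 and at 3.91 and 19.2 CPM in replicate 2. It rose by 2.39 ± 0.46 (adjusted p = 0.0477, edgeR). *Adamts18*, the gene seen in chondrocytes, was at 0.433 and 3.63 CPM in replicate 1 and at 0.145 and 9.99 CPM in replicate 2, and rose by 4.80 ± 0.93 (adjusted p = 0.0480, edgeR). *Timp4* was at 14.0 and 3.30 CPM in replicate 1 and at 14.5 and 1.87 CPM in replicate 2, and fell by 2.58 ± 0.50 (adjusted p = 0.0480, edgeR). All 4 had groups that did not overlap.

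Markers of other mesenchymal classes moved with these values. The 12 osteoblast markers summed to 7613 and 30573 CPM in replicate 1 and to 7684 and 25145 CPM in replicate 2 (6 of 12 higher), and the 14 periosteal fibroblast markers to 899 and 1156 CPM in replicate 1 and to 235 and 14416 CPM in replicate 2 (1 of 14 higher). The 12 reticular markers summed to 30754 and 20100 CPM in replicate 1 and to 35114 and 5199 CPM in replicate 2 (none of 12 passed). None of these markers was at 0 in all libraries, and their part in the result was not tested.

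*Mmp2* in all mesenchymal cells was at 128 and 341 CPM in replicate 1 and at 49.0 and 827 CPM in replicate 2, a difference of 2.70 ± 0.80 with an adjusted p of 0.140 in edgeR. *Mmp3* was at 1.88 and 1.98 CPM in replicate 1 and at 0.254 and 301 CPM in replicate 2, so that 1 library held its whole difference (adjusted p = 0.350, edgeR). *Adamts1* was at 453 and 173 CPM in replicate 1 and at 1054 and 149 CPM in replicate 2 (-2.15 ± 0.66, adjusted p = 0.152, edgeR). *Mmp13* was higher in ABL in replicate 1 (1201 and 2398 CPM) and lower in replicate 2 (1171 and 987 CPM). *Adamts16* was at 0.144 and 0.661 CPM in replicate 1 and at 0.0362 and 7.88 CPM in replicate 2 (6.11 ± 1.34, adjusted p = 0.0596, edgeR), on 1 UMI in each CONT library. The low genes *Adamts6*, *Adamts17* and *Mmp28* had adjusted p-values of 0.187, 0.258 and 0.881 in edgeR.

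Neutrophils and erythroid cells could also be fitted, with 10 members tested in each. In neutrophils 1 of 10 passed, against 0.232% of 6032 genes. *Mmp8* and *Mmp9*, whose neutrophil levels are given above, had log2 fold changes of -0.07 ± 0.43 and 0.00 ± 0.42, and *Timp2* one of 0.12 ± 0.36. The member that passed was *Timp1*, at 0.466 and 16.9 CPM in replicate 1 and at 2.91 and 17.8 CPM in replicate 2 (3.91 ± 0.63, adjusted p = 0.00895, edgeR). Free RNA was estimated to give neutrophils 22.3 and 26.7 CPM of *Timp1* in the ABL libraries, above the measured level in both. In the CONT libraries the estimates were 4.36 and 0.762 CPM. These estimates rest on a marker list that includes the neutrophil markers themselves, so they can be too high. The part of free RNA in this result was not tested.

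In erythroid cells 2 of 10 members passed, against 0.631% of 7454 genes. *Mmp2* was at 2.32 and 12.0 CPM in replicate 1 and at 0.553 and 28.8 CPM in replicate 2 (3.31 ± 0.60, adjusted p = 1.20e-04, edgeR). *Adamts1* was at 19.4 and 11.1 CPM in replicate 1 and at 101 and 3.72 CPM in replicate 2 (-2.38 ± 0.54, adjusted p = 0.00537, edgeR). The free RNA estimates in the same order were 6.46, 12.8, 14.1 and 4.08 CPM of *Mmp2* and 36.4, 9.52, 137 and 1.501 CPM of *Adamts1*. *Mmp2* lay below its estimate in every library but ABL replicate 2, and *Adamts1* lay below it in both CONT libraries. The estimates rest on a marker list that includes the erythroid markers themselves, so they can be too high. The part of free RNA in these results was not tested. None of these calls remained without the replicate block, where 3 members had an unadjusted p under 0.05 in either class.

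Genes that act with the members were read from the same fits, by lists chosen for their function but with earlier results of these data known. The substrate list holds *Col1a1*, *Spp1*, *Postn* and *Tnc*, which the study shows among osteoblast-signature genes of these cells after ablation. The counts below therefore describe the lists and do not test them. In reticular cells 12 of 20 tested substrates of MMP and ADAMTS enzymes were higher in ABL and 0 lower, with a median log2 fold change of 1.76, where 2.68% of all genes tested were higher and the median of all genes was -0.01. *Postn*, an adhesive matrix protein, was at 3.25 and 70.3 CPM in replicate 1 and at 2.57 and 117 CPM in replicate 2 (5.03 ± 0.29, adjusted p = 1.75e-63, edgeR). Fibronectin, *Fn1*, was at 37.5 and 447 CPM in replicate 1 and at 9.87 and 553 CPM in replicate 2 (4.60 ± 0.37, adjusted p = 7.07e-32, edgeR), and *Spp1*, or osteopontin, rose by 3.99 ± 0.49 and *Col10a1* by 4.73 ± 0.88. Of activators and cell-surface partners 3 of 9 were higher and 0 lower, of other inhibitors 2 of 11 were higher and 0 lower, and of other matrix proteases 1 of 17 was higher and 0 lower. In all mesenchymal cells the counts were 2 of 22 substrates, 1 of 12 activators, 1 of 14 inhibitors and 1 of 19 other proteases higher, and 0 lower in each list, where 0.903% of all genes were higher. *Pcsk6*, a proprotein convertase, was at 2.74 and 29.9 CPM in replicate 1 and at 0.580 and 79.5 CPM in replicate 2 of that fit (5.25 ± 0.85, adjusted p = 0.0298, edgeR), and *Cst6*, a cysteine protease inhibitor, rose by 5.77 ± 1.14 (adjusted p = 0.0480, edgeR). All these calls were lost without the replicate block, where edgeR called 0 genes of any kind in either fit (369 of 11408 genes in reticular cells, and 1228 of 13725 in the mesenchymal cells as a whole, had an unadjusted p under 0.05).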

How the data were processed

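Barcoded cDNA of sorted cells was counted by the authors with Cell Ranger against mm10 with reporter sequences added, and the deposited values are UMI counts of every barcode, without normalization. Cells met the study's limits (500 genes and 20% mitochondrial UMIs for version 2, 1000 genes and 15% for version 3) and had 1/10 or more of the UMIs of the 99th percentile barcode among the 3000 fullest. Libraries held 22889380 to 44784072 UMIs. No doublets were removed (Scrublet in scanpy 1.11.5 marked 0.0832 to 2.27% of cells). Droplets with at most 300 UMIs gave the free RNA profile. The free RNA share of a class was the median ratio of class level to profile level over 25 erythroid, neutrophil and granulocyte precursor markers. For neutrophils and erythroid cells that list holds markers of the class itself, so their estimates can be too high. Libraries were clustered in Seurat 5.3.0 (2000 variable genes, 30 components, resolution 0.8), and mesenchymal cells were integrated per replicate and clustered again without members and markers. A cluster stayed unnamed with fewer than 3 detected markers, a best score under 0.25 or a lead under 0.1 over the second score. It also stayed unnamed with more leading genes of another class than of its own.

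UMIs were summed per library and class, for classes with at least 10 cells in every library, and compared by the quasi-likelihood test of edgeR 4.0.16 (TMM scaling, low-count filter, replicate block, Benjamini-Hochberg over all genes, threshold 0.05). The script was tested on simulated data. The block follows the study's use of the left femur of the same mice as control and the shared chemistry, although the labels tie no library to mice and *Xist* goes against the same mice in replicate 2. Where several mice were pooled they are 1 sample. The SE of a log2 fold change was its absolute value divided by the square root of the F statistic of edgeR. The members and lists were chosen with earlier results of these data known. Members are named where they were tested in a fit or reached 20 CPM in a class of a library, and genes of the related lists where they were among the 4 largest rises or falls past the threshold with the same direction in both replicates. Alternatives were DESeq2 1.42.0, no block, no TMM, no filter, left-out libraries, free RNA subtracted, other cell filters, doublets removed, tdTomato+ cells only, no integration and other resolutions. Coordinates are those of GENCODE M21 (GRCm38), and promoters those of RefSeq.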

Additional observations from a re-analysis of the deposited data

Results flagged for a closer look

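*Mmp9* moved in opposite directions in 2 classes, in both replicates of each. In reticular cells its log2 fold change of ABL over CONT was 0.72 ± 0.23, with both ABL libraries above both CONT libraries. By reticular cluster its CONT and ABL ranges overlapped, as given above. In erythroid cells it was -0.95 ± 0.53 and did not pass (adjusted p = 0.839, edgeR), with 34.4 and 20.3 CPM in replicate 1 (CONT, then ABL) and 5.53 and 0.930 CPM in replicate 2. The difference between the classes was not tested. Free RNA was estimated at 38.0 and 21.6 CPM of *Mmp9* in erythroid cells of replicate 1 (CONT, then ABL) and at 17.2 and 1.66 CPM in replicate 2. These estimates lay above the measured level in each library. They rest on a marker list that includes the erythroid markers themselves, so they can be too high.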

How the results depend on the processing

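Without the replicate block 0 members passed in reticular cells, in all mesenchymal cells, in neutrophils or in erythroid cells, against 10, 4, 1 and 2 with it (7, 14, 3 and 3 members at an unadjusted p under 0.05). In reticular cells 5 passed in DESeq2, 5 without integration and 8 to 10 under the other settings that keep the block. Of all genes, 183 of 11408 passed in DESeq2, 228 of 10650 without integration and 481 to 604 under those other settings. In all mesenchymal cells 7 passed in DESeq2, 10 without TMM, 0 without the filter on low counts and 0 with doublets removed (13 members at an unadjusted p under 0.05 in both), 7 with stricter cell limits, 7 in tdTomato+ cells alone, 5 with free RNA subtracted and 3 under the study's limits alone. The number of all genes that passed, 150 in the main fit, moved across these settings too. It was 657 in DESeq2, 1053 without TMM, 16 without the filter and 12 with doublets removed. It was 722 with stricter limits, 743 in tdTomato+ cells, 530 with free RNA subtracted and 142 under the study's limits. With each library left out in turn, a fit that has no block and takes the lone library to vary like the other group, 0 members passed in reticular cells and 0 to 5 in all mesenchymal cells (5 without ABL replicate 1, 0 without each of the other 3), with 4 to 15 members at an unadjusted p under 0.05. The log2 fold change of *Adamts12* in reticular cells then ranged from -0.52 without ABL replicate 2 to 5.06 without CONT replicate 2, and the cause was not tested. *Timp1*, *Mmp2* and *Mmp11* passed in reticular cells under all 11 alternatives with the block, *Adamts15* and *Adamtsl1* under 10, *Mmp17* and *Adamts12* under 9, *Adamts14* and *Adamtsl4* under 7 and *Mmp9* under 4. Leaving out TMM moved the median of all genes in reticular cells to 0.09. The mean over cells in place of summed UMIs moved the number of members at 20 CPM or more from 23 to 20 in periosteal fibroblasts and from 10 to 7 in neutrophils. Depth limits the members at a few CPM in reticular cells, such as *Adamts12*.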

Other observations

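Periosteal fibroblasts of replicate 2 differed in several members between the 18 CONT cells and the 655 ABL cells, with 1 library per group and no test. *Adamts5* was at 625 CPM (95% exact Poisson interval 525 to 739) in CONT and 71.7 CPM (66.6 to 77.2) in ABL, *Timp3* at 725 CPM (617 to 847) and 109 CPM (102 to 115), and *Adamts1* at 675 CPM (571 to 793) and 126 CPM (119 to 133). *Mmp2* and *Timp2* were at 429 and 730 CPM in CONT and at 1129 and 1570 CPM in ABL. The CONT cells came from a pair of clusters, and the differences were not alike in them. In the first (8 CONT and 465 ABL cells) *Adamts1* was at 939.96 CPM in CONT and 134 CPM in ABL and *Adamts5* at 855 and 73.96 CPM, and 143 of the 148 *Adamts1* UMIs of the CONT cells came from these 8 cells. In the second (10 CONT and 190 ABL cells) *Adamts1* was at 74.6 and 108 CPM, the opposite direction, *Adamts5* at 104 and 66.96 CPM, and *Timp3* at 1924 and 152 CPM. Both clusters had more *Mmp2* (605 and 1467 CPM, 29.8 and 405 CPM) and *Timp2* (894 and 1845 CPM, 358 and 980 CPM) in ABL. In ABL the first and second cluster also differed in *Mmp13* (439 and 26.8 CPM) and *Timp1* (639 and 1107 CPM). *Cxcl12*, a marker of the reticular class, was at 2445 CPM in the 18 CONT cells and 377 CPM in the 655 ABL cells. *Prg4*, on the marker list used for the periosteal class and the leading gene of the second cluster, was at 552 and 19648 CPM. The part of these genes in the result was not tested. In the cycling cells of the same libraries *Adamts5* was at 369 CPM in CONT and 37.5 CPM in ABL, and *Timp3* at 915 and 164 CPM. The limit on the makeup of cycling cells given for *Mmp13* applies here too. Pre-osteoblasts of replicate 1 held 294 CPM of *Timp3* in CONT and 285 CPM in ABL, above the 23.98 and 31.4 CPM of the reticular cells beside them.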
